A study of Mus musculus with 22 samples.

Results

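The response of embryonic mouse hearts to loss of Prdm16 was followed in 10 genes of oxygen sensing and the hypoxia response: Hif1a, Epas1, Egln1, Egln3, Vegfa, Bnip3, Ankrd37, Ndrg1, Adm and P4ha1. They were taken by symbol from the 54356 genes with summed reads in 22 bulk RNA-seq libraries, and all 10 were abundant enough to be tested in every comparison. The hearts were C57BL/6 and collected at embryonic day E13.5. One genotype was a Prdm16 conditional knockout (cKO), and the other carries the genetic manipulation label Mock and the title label WT; the series describes these as littermate controls. There were 3 whole hearts, 4 left ventricles and 4 right ventricles of each genotype. The labels name no promoter or cell type that drives the deletion, and nothing in them ties a cKO library to a control, or a left ventricle to the right ventricle of the same heart. If any libraries were not from separate animals, the p-values measure only the spread between these samples.

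Cells sense oxygen through prolyl hydroxylases of the EGLN family, which mark the HIF alpha subunits for destruction by the VHL ubiquitin ligase while oxygen is present. When oxygen falls, HIF-1 alpha (Hif1a) and HIF-2 alpha (Epas1) accumulate, pair with ARNT and switch on genes for blood vessel growth, glucose use, matrix synthesis and mitochondrial turnover. In the embryonic heart this pathway acts on vessel and chamber growth, and adrenomedullin (Adm), a secreted vasoactive peptide and known HIF target, is needed for normal cardiovascular development.

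The core sequence that HIF binds is ACGTG or GCGTG, read on either strand (CACGT or CACGC on the other). It was searched in the 250 bases before each RefSeq start site in the GRCm38.p6 promoter table, which held 9 windows for 8 of the 10 genes. Epas1 and Ndrg1 had no entry. Of all 32851 windows in that table, 38.6% held at least 1 match, and of the 9178 windows with at least 60% G and C, 63.8% did. Matches overlapping in CACGTG were counted on both strands. Windows of Bnip3 held 5 matches, Ankrd37 4, Hif1a and P4ha1 3 each, Egln1 and Adm 2 each, and Egln3 1. The first Vegfa window held 0 and the second 2. Bnip3 and Hif1a held the full CACGTG, present in 6.02% of all windows. The windows of 3 genes are shown because Adm and P4ha1 rose and Vegfa fell in the cKO left ventricle; capitals mark the matches, and each is given 5' to 3' on the strand of its gene. The Adm window is chr7:110627407-110627656 (plus strand), the P4ha1 window chr10:59323046-59323295 (plus) and the first Vegfa window chr17:46032378-46032627 (minus).
Adm: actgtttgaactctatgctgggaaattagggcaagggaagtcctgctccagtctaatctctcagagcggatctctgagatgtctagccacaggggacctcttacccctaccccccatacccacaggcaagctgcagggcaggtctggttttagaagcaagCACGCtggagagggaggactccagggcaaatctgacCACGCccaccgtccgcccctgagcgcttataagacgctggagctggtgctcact
P4ha1: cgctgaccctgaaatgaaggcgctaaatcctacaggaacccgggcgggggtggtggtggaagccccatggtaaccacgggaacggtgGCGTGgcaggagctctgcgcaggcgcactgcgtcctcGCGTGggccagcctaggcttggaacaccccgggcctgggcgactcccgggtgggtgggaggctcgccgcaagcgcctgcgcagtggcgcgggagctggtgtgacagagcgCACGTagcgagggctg
Vegfa: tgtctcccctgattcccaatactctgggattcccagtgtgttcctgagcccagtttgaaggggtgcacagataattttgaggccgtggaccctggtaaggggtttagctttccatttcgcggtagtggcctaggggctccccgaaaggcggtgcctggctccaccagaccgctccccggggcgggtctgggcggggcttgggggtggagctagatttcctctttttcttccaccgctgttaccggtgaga
The matches for Adm begin 90 and 54 bases before the start site, and those of P4ha1 163, 126 and 16 bases before it. These matches describe the letters and not binding, which was not measured.

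Depth and tissue identity were checked on all libraries. Whole heart libraries held 38590751 to 62004017 assigned reads, and ventricle libraries 14508722 to 22830716. Prdm16 was lower in every cKO library than in every control of its tissue, with log2 fold changes of -1.04 (whole heart), -1.19 (left ventricle) and -0.75 (right ventricle). All 9 cardiomyocyte markers were present in every library. The biological coefficient of variation was 0.184 over the 19160 genes of the whole heart fit and 0.0929 over the 16448 of the ventricle fit. These values cover different sets of genes, and not every one of the 10 genes spread more in whole hearts. A pair of libraries stood apart. Whole heart control 1 was the smallest of its tissue and had 17807 genes with at least 10 reads against 18885 to 19522 in the other 5. Right ventricle control 2 had the most summed expression of 8 mesenchyme and valve markers, 1150 TPM against as little as 452 in its group. TPM is scaled to transcript length, and CPM (with edgeR's TMM factors) only to library size. CPM is used here to compare 1 gene between libraries. Fold changes are log2 with their standard error (SE), and a gene is called where the Benjamini-Hochberg adjusted p of edgeR's quasi-likelihood test, over all genes tested, is under 0.05.

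Adrenomedullin rose in all 3 tissues, and Vegfa and Egln1 fell in all 3, while the other 7 genes were called in 1 ventricle or in no tissue. The left ventricle had 6 of the 10 genes called: Adm, P4ha1 and Hif1a rose and Ndrg1, Vegfa and Egln1 fell. There 25.6% of all 16448 genes tested were called, 12.3% higher and 13.4% lower. The right ventricle had 4 of 10 called, with Adm and Egln3 higher and Vegfa and Egln1 lower, against 10.3% of all genes (6.12% higher, 4.19% lower). Among whole hearts 3 of 10 were called, Adm higher and Vegfa and Egln1 lower, against 4.03% of the 19160 genes tested (1.96% higher, 2.07% lower). Directions were therefore mixed within the group: the median log2 fold change over the 10 genes was -0.11 in the left ventricle, -0.06 in the right ventricle and near 0 in the whole heart. Epas1, Bnip3 and Ankrd37 were called in none of the 3 comparisons. On log2 TPM or with length-scaled counts, both of which bring in transcript lengths, the 3 whole heart calls ended (adjusted p of 0.405 to 0.813). The whole heart log2 differences there were -0.07 and -0.13 for Egln1, -0.20 and -0.27 for Vegfa, and 0.48 and 0.44 for Adm. On log2 TPM so did those of Egln1 in the left ventricle (0.0973) and of Vegfa (0.0604), Egln3 (0.0923) and Egln1 (0.0831) in the right, and with length-scaled counts those of Hif1a in the left (0.0629) and Egln1 in the right (0.0564). The plots of CPM by library and of the fold changes show these groups.

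**Figure D1:**
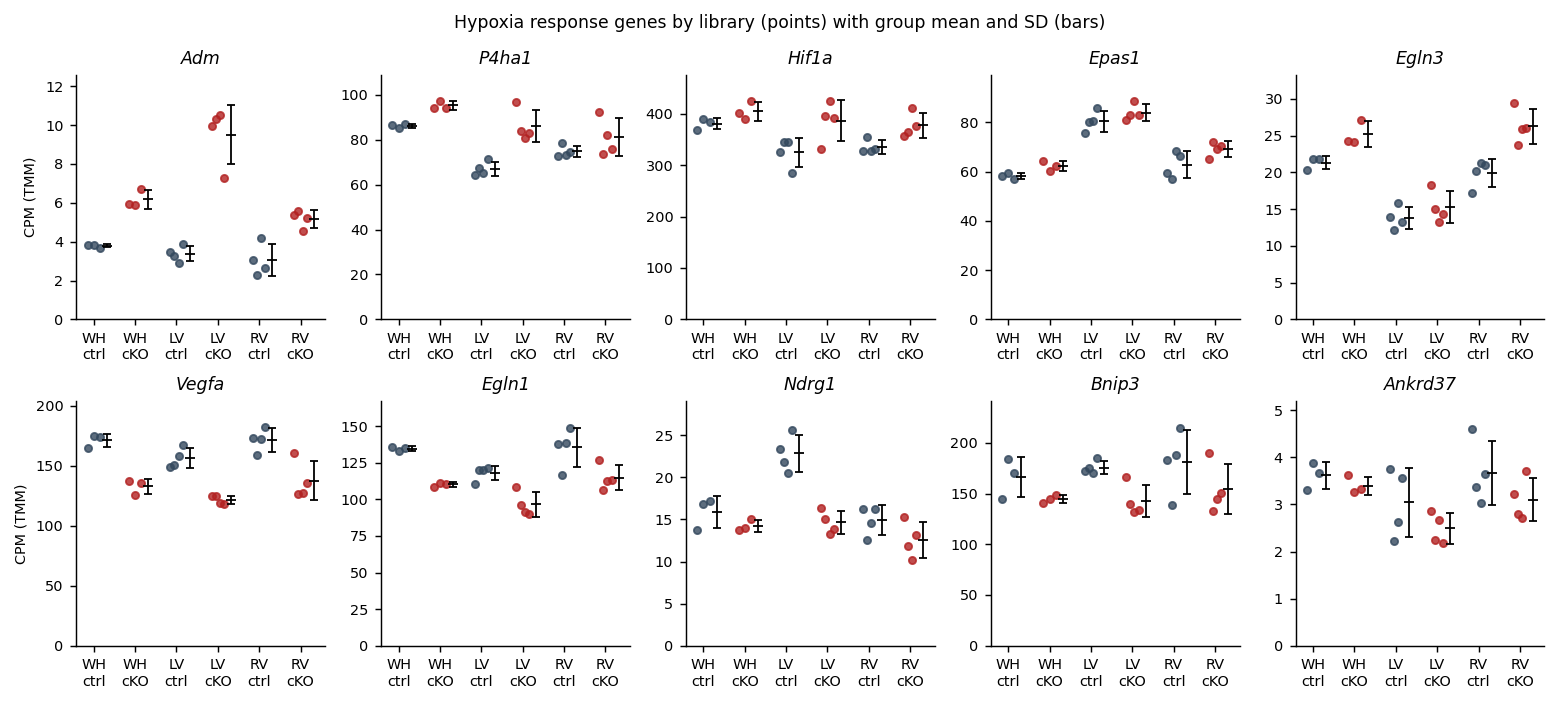
CPM (vertical axis, linear from 0, TMM scaled) of the 10 genes in 22 libraries, with control in dark grey and cKO in red for whole heart (WH), left ventricle (LV) and right ventricle (RV). Points are libraries and black bars are group mean and SD; in the LV the 4 Adm cKO points sit between 7.28 and 10.5 and the 4 controls between 2.93 and 3.88.

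**Figure D2:**
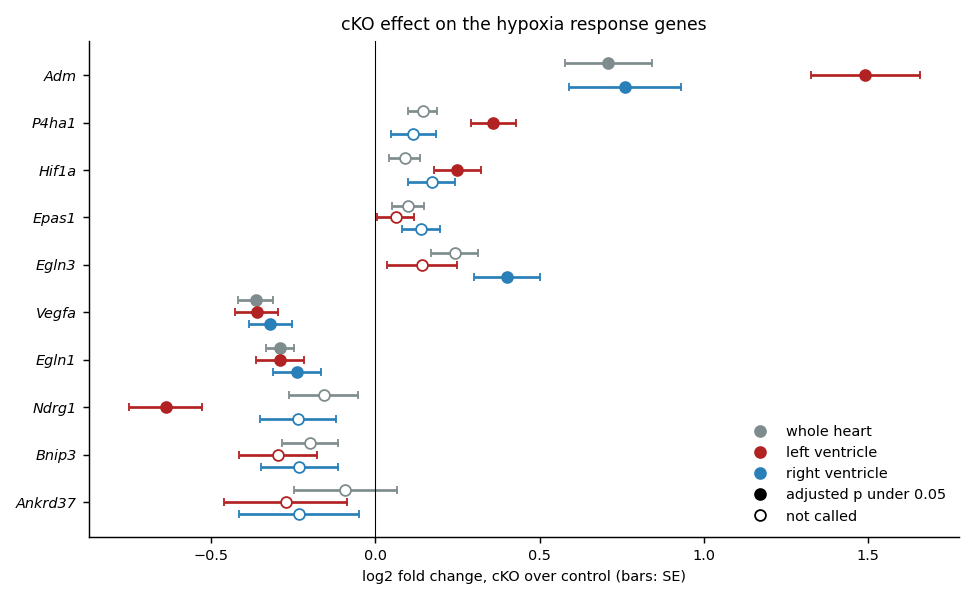
Log2 fold change of cKO over control (horizontal axis, bars are SE) for the 10 genes in whole heart, left and right ventricle. Filled points have an adjusted p under 0.05 and open points do not; Adm lies farthest to the right, at 1.49 in the left ventricle, and Ndrg1 farthest to the left, at -0.64 in the same tissue.

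Adm (chr7:110627661-110629820, plus strand, GRCm38) encodes the adrenomedullin precursor. Left ventricle cKO libraries held 9.93, 10.3, 10.5 and 7.28 CPM and controls 3.49, 3.26, 2.93 and 3.88. Every cKO library was above every control. The log2 fold change was 1.49 (SE 0.17), which is 2.81-fold, with an adjusted p of 5.22e-06. Right ventricle cKO libraries held 5.38, 5.58, 4.53 and 5.22 CPM against 3.05, 2.28, 4.21 and 2.65 in controls. These groups also did not overlap, although control 3 came near the lowest cKO library. The log2 fold change there was 0.76 (SE 0.17), 1.69-fold, with an adjusted p of 0.00765. Whole heart cKO libraries held 5.92, 5.88 and 6.71 CPM and controls 3.84, 3.80 and 3.69. In CPM the 2 sets were apart and each was narrow. Per length they overlapped, with control 1 at 8.27 TPM against 7.26 to 9.53 in cKO. On counts the log2 fold change was 0.71 (SE 0.13), 1.63-fold, with an adjusted p of 0.0293. This whole heart call ended when any 1 library other than control 1 was left out (adjusted p of 0.0610 to 0.163), while both ventricle calls held without each library in turn. Adm was among the least abundant of the 10 genes, with 46 to 397 estimated reads per library. A share of 27.97% to 40.24% of its TPM, as group means, was assigned to a 376-base retained-intron transcript rather than to the 1390-base coding one.

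Among the ventricle groups Adm was highest in the left ventricle cKO (9.51 ± 1.50 CPM, SD, n = 4), then the right ventricle cKO (5.18 ± 0.454), left ventricle control (3.39 ± 0.400) and right ventricle control (3.05 ± 0.834). Both control groups did not differ beyond their spread (log2 difference of 0.14, SE 0.18, adjusted p of 0.621). The left ventricle cKO stood above the right ventricle cKO by 0.87 (SE 0.16, adjusted p of 0.000523), with no overlap of libraries.

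Adrenomedullin ligand, receptor and processing genes were counted in a list of 17. It holds Adm itself and genes of related peptides and receptors, such as Calca, Calcb and Calcr. Adm is among the genes called higher in each tissue below. Adrenomedullin signals through the receptor CALCRL paired with RAMP2 or RAMP3, and CALCRL paired with RAMP1 is the receptor of CGRP. Left ventricle cKO hearts had 11 of 15 tested genes higher and 0 lower, with a median log2 fold change of 0.44. Right ventricles had 9 of 15 higher and 0 lower (median 0.24), and whole hearts 5 of 16 higher and 0 lower (median 0.25). Medians over all genes tested were -0.00083, -0.00538 and 0.0149 in these 3 comparisons. Called higher among all genes were 12.3%, 6.12% and 1.96%, in the same order. The list was chosen with earlier results of these data known. The whole heart count was 3, 1, 1 and 2 without cKO 1, cKO 2, cKO 3 and control 3, in that order, and 7 without control 1.

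Ramp1 rose by more than any other receptor component in the list that was called. Its level was 26.0 ± 2.51 TPM in left ventricle cKO and 13.8 ± 1.50 in control, and 29.4 ± 1.61 against 14.5 ± 2.51 in the right (SD, n = 4). No cKO library overlapped a control, and the log2 fold changes were 0.90 (SE 0.09), 1.09 (SE 0.09) and, in the whole heart, 0.84 (SE 0.11). Mme, which encodes neprilysin, a membrane protease that cleaves small peptides including adrenomedullin, rose by 0.93, 0.87 and 0.84 in left ventricle, right ventricle and whole heart. Furin, a convertase that cuts precursor proteins, rose by 0.46 in the left ventricle and 0.24 in the right, and had 0.14 (adjusted p of 0.333) in the whole heart. Outside the naming rule, and chosen after their values were seen, the receptor Calcrl and its partner Ramp2 were also higher. Calcrl had 0.45 (adjusted p of 0.00315) in the left ventricle, 0.10 (adjusted p of 0.609) in the right and 0.49 (adjusted p of 0.0464) in the whole heart. Ramp2, the most abundant of the 3 Ramp genes at 131 to 167 TPM as ventricle group means, rose by 0.25 in the left ventricle and 0.21 in the right. Ramp3 had 1.58 to 1.85 TPM as ventricle group means and was not called.

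Markers of vessel lining moved with genotype beside these genes, and those of epicardium did so in the left ventricle. Of all genes, 12.3% were called higher in the left ventricle, 6.12% in the right and 1.96% in the whole heart. Called lower were 13.4%, 4.19% and 2.07%, in the same order. Of 12 endothelial and endocardial markers, 8 were higher and 1 lower in the left ventricle cKO, and their summed level was 841 to 938 TPM against 686 to 720 in controls. In the right ventricle 3 were higher and 1 lower (717 to 743 TPM against 637 to 694), and in the whole heart 2 were higher (713 to 800 against 665 to 683). Of 8 epicardial markers, 5 were higher in the left ventricle (218 to 244 TPM against 165 to 183), 1 in the right (136 to 178 against 127 to 185) and 0 in the whole heart (171 to 200 against 164 to 180). Cardiomyocyte markers were lower for 6 of 9 in the left ventricle (23000 to 24100 TPM against 24900 to 26700), 0 in the right and 4 in the whole heart. No summed marker of these lists was at 0. Their part in the change of Adm and its receptors was not tested, and in bulk tissue fewer cells of a type and less RNA per cell cannot be told apart.

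**Figure D3:**
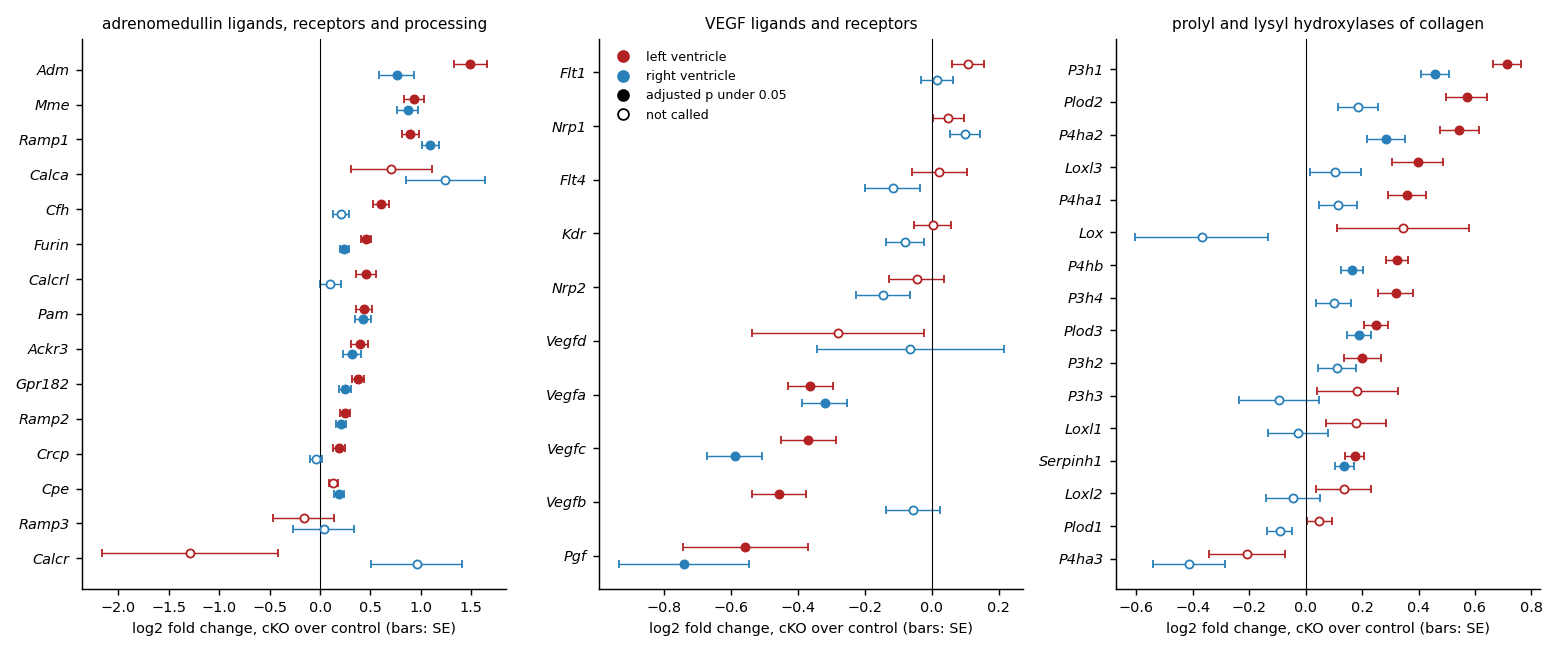
Log2 fold change of cKO over control (horizontal axis, bars are SE) for adrenomedullin, VEGF and collagen hydroxylase genes in left (red) and right (blue) ventricle. Filled points have an adjusted p under 0.05; called points of the adrenomedullin and collagen lists lie right of 0 and those of the VEGF list left of 0.

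Hif1a and Epas1, the genes of 2 HIF alpha subunits, changed little in size. Hif1a (chr12:73901375-73947530, plus strand) held 330.7, 396.4, 425.1 and 392.0 CPM in left ventricle cKO and 324.9, 344.0, 345.4 and 284.8 in control. The groups overlapped through cKO 1, and the log2 fold change was 0.25 (SE 0.07, adjusted p of 0.0169). That call ended without cKO 3 (adjusted p of 0.0665) or control 4 (0.0591). Right ventricle cKO libraries (357.4, 365.3, 411.4 and 375.4 CPM) were all above controls (326.7, 354.6, 327.9 and 331.5), but the fold change of 0.17 (SE 0.07) had an adjusted p of 0.16, and whole hearts had 0.09 (SE 0.05, adjusted p of 0.392). Epas1 held 80.8 to 88.8 CPM in left ventricle cKO and 75.5 to 85.7 in control, and 65.0 to 72.2 against 57.1 to 68.4 in the right, with overlap in both. Whole hearts held 60.4 to 64.3 CPM against 57.0 to 59.5, without overlap. Its fold changes were 0.06, 0.14 and 0.10 in left ventricle, right ventricle and whole heart, with SEs of 0.05 to 0.06 and none called.

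Egln1 (chr8:124908587-124949324, minus strand), which encodes PHD2, the main oxygen-dependent HIF hydroxylase, fell in each tissue. Left ventricle cKO libraries held 108.5, 96.2, 91.5 and 90.1 CPM against 110.4, 120.2, 120.2 and 121.2 in control. All cKO libraries were below all controls, by a narrow gap between cKO 1 and control 1, and Egln1 fell by 0.29 (SE 0.07, adjusted p of 0.00726). Whole hearts held 108.3, 111.5 and 110.8 CPM against 135.8, 133.0 and 135.3, a gap wider than either spread, with a fall of 0.29 (SE 0.04, adjusted p of 0.0112). Per length the same groups overlapped, with 39.5 to 42.8 TPM against 36.7 to 50.9. Right ventricles held 126.8, 106.4, 112.8 and 113.4 CPM against 137.6, 116.8, 138.6 and 149.1, overlapping through control 2. Egln1 there fell by 0.24 (SE 0.07, adjusted p of 0.0467). The right ventricle call ended in 6 of 8 cases when 1 library was left out (adjusted p of 0.0987 to 0.142); without control 2 the fall was 0.30 (adjusted p of 0.00369). In the whole heart the call ended in 4 of 6 cases (adjusted p of 0.0587 to 0.0734).

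Egln3 encodes PHD3, a hydroxylase that is itself a HIF target. Its right ventricle cKO libraries held 29.4, 23.7, 25.9 and 26.1 CPM and controls 17.2, 20.1, 21.3 and 21.1. The groups did not overlap, and Egln3 rose by 0.40 (SE 0.10, adjusted p of 0.0154). Left ventricle values overlapped (13.2 to 18.3 CPM in cKO, 12.2 to 15.9 in control), with 0.14 (SE 0.11, adjusted p of 0.38). Whole heart cKO libraries (24.1 to 27.2 CPM) were above controls (20.3 to 21.9) with 0.24 (SE 0.07, adjusted p of 0.131). The right ventricle call ended without cKO 1 (adjusted p of 0.0588) or control 1 (0.0537).

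Over the 18 genes of the list of HIF subunits and oxygen sensing, 4 were higher and 2 lower in the left ventricle cKO (median 0.04), 1 higher and 1 lower in the right (median 0.06), and 1 higher and 2 lower in the whole heart (median 0.00). Of all genes, 25.6%, 10.3% and 4.03% were called in these comparisons, and the right ventricle count is close to that share. Vhl, the recognition subunit of the ligase, rose by 0.28 in the left ventricle. Arnt2, a partner of the alpha subunits, rose by 0.61 there, from 5.20 ± 0.903 to 8.29 ± 0.629 TPM, and by 0.29 in the whole heart. Cited4, which competes for the coactivators CBP and p300, fell by 0.49 in the left ventricle and by 0.62 in the whole heart. In the right ventricle these 3 genes had 0.10, 0.11 and -0.29 and were not called. Without left ventricle control 4 the number higher was 2. With 1 library left out, right ventricles had 0 to 2 higher and 0 to 1 lower, and whole hearts 0 to 1 and 0 to 2.

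Vegfa (chr17:46016993-46032369, minus strand), the main growth factor for endothelial cells, fell by a like amount in all 3 tissues. Left ventricle cKO libraries held 124.7, 124.9, 118.7 and 118.5 CPM, and controls 148.9, 151.0, 158.4 and 167.2. The cKO values were tightly grouped below every control, a fall of 0.36 (SE 0.07, adjusted p of 0.00064). Right ventricle cKO libraries held 160.9, 126.2, 127.0 and 136.1 CPM against 173.6, 158.7, 172.6 and 182.5 in controls. Only cKO 1 reached the control range, above control 2, and Vegfa fell by 0.32 (SE 0.07, adjusted p of 0.00431). Whole heart values were 137.4, 126.0 and 136.1 CPM against 165.1, 174.9 and 174.4, without overlap. Per length, control 1 (99.6 TPM) lay below every cKO library (102 to 108). On counts Vegfa fell there by 0.36 (SE 0.05, adjusted p of 0.0102). That call ended without cKO 2, cKO 3 or control 3 (adjusted p of 0.0554 to 0.0612), whereas both ventricle calls held without each library in turn.

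In the VEGF family only ligands were called, and these fell. Of 10 tested ligand and receptor genes, 4 were lower and 0 higher in the left ventricle (median -0.16), 3 and 0 in the right (median -0.10), and 3 and 0 in the whole heart (median -0.07). Of all genes, 13.4%, 4.19% and 2.07% were called lower in these comparisons. The endothelial markers given above, 8 of 12 of them higher in the left ventricle, and the cardiomyocyte markers, 6 of 9 lower, moved beside this list, and their part was not tested. Vegfc, a ligand for lymphatic and venous endothelium, fell by 0.37 in the left ventricle, 0.59 in the right and 0.35 in the whole heart. Pgf, placental growth factor, fell by 0.56 in the left ventricle, with overlapping libraries, and by 0.74 in the right, from 3.39 ± 0.566 to 1.92 ± 0.265 TPM. Vegfb fell by 0.46 in the left ventricle and 0.45 in the whole heart, and had -0.06 (adjusted p of 0.744) in the right. The receptor genes Kdr and Flt1, which are also in the endothelial marker list, were 31.0 ± 0.436 and 14.9 ± 1.25 TPM in left ventricle controls and 32.1 ± 2.43 and 15.5 ± 2.41 in cKO. The whole heart count was 1, 0, 0 and 0 without cKO 1, cKO 2, cKO 3 and control 3, in that order.

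P4ha1 (chr10:59323296-59373304, plus strand) encodes a catalytic subunit of collagen prolyl 4-hydroxylase, which stabilises the collagen triple helix. Left ventricle cKO libraries held 96.7, 83.9, 80.5 and 82.9 CPM and controls 64.2, 67.5, 65.3 and 71.2. Every cKO library exceeded every control, cKO 1 by the most, and P4ha1 rose by 0.36 (SE 0.07, adjusted p of 0.000841). Right ventricle values were 92.5, 73.6, 82.2 and 75.7 CPM against 72.9, 78.5, 73.3 and 74.6, with overlap and a fold change of 0.12 (SE 0.07, adjusted p of 0.334). Whole hearts held 94.2, 97.4 and 94.1 CPM against 86.3, 85.2 and 87.0, which did not overlap, yet 0.14 (SE 0.04) had an adjusted p of 0.143.

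Among enzymes and helpers that modify collagen, the genes called rose, as P4ha1 did. Of 16 tested, P4ha1 included, 10 rose and 0 fell in the left ventricle (median 0.28), and 5 rose and 0 fell in the right (median 0.11). In the whole heart 2 of 17 rose and 0 fell (median 0.14). Called higher among all genes were 12.3%, 6.12% and 1.96% in these comparisons. P3h1, a prolyl 3-hydroxylase, rose by 0.71 (SE 0.05), 0.46 (SE 0.05) and 0.40 (SE 0.06) in left ventricle, right ventricle and whole heart. In the left ventricle it went from 36.0 ± 1.58 to 66.5 ± 7.27 TPM. P4hb, the second subunit of the P4ha1 enzyme and a disulfide isomerase, rose by 0.32 in the left ventricle and 0.16 in the right. P4ha2, the sister catalytic subunit, rose by 0.54 and 0.28. Plod2, a lysyl hydroxylase and HIF target, rose by 0.57 in the left ventricle and by 0.25 in the whole heart, and had 0.18 (adjusted p of 0.122) in the right. The whole heart count was 4 without control 1 and 0 without cKO 1, cKO 2, cKO 3 or control 3. The mesenchyme and valve markers, whose cells make much of the heart's collagen, were higher for 2 of 8 in the left ventricle (681 to 836 TPM against 517 to 824) and for 0 in the right (458 to 602 against 452 to 1150) and whole heart (1730 to 1940 against 1480 to 1500). Their part in the collagen enzyme changes was not tested.

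Ndrg1 (chr15:66929318-66969640, minus strand), a stress-responsive gene of the N-myc downregulated family, fell in the left ventricle. Values there were 16.4, 15.1, 13.3 and 13.9 CPM in cKO and 23.4, 21.8, 20.5 and 25.7 in control. All cKO libraries were well below all controls, a fall of 0.64 (SE 0.11, adjusted p of 0.000428). Right ventricles (10.2 to 15.3 CPM in cKO, 12.6 to 16.3 in control) and whole hearts (13.8 to 15.1 against 13.7 to 17.2) overlapped. Their fold changes were -0.24 (SE 0.12, adjusted p of 0.236) and -0.16 (SE 0.10, adjusted p of 0.502). Ndrg1 is given in CPM because the split of its reads varied between libraries: a 316-base transcript took 0% to 53.66% of its TPM in left ventricle controls. Its relative Ndrg2 fell by 0.77 (SE 0.04) in the left ventricle, 0.36 (SE 0.04) in the right and 0.39 (SE 0.04) in the whole heart. Ndrg2 went from 151 ± 11.0 to 92.7 ± 8.28 TPM in the left ventricle. Ndrg3 fell by 0.16 there, though on log2 TPM its difference was 0.0257, and Ndrg4 had 0.13 (adjusted p of 0.157).

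Bnip3, a mitochondrial receptor for mitophagy, was lower in mean in all 3 tissues without passing the threshold. Left ventricle cKO libraries held 166.1, 139.5, 131.6 and 134.2 CPM and controls 171.7, 175.3, 169.8 and 184.6. The groups did not overlap, but the log2 fold change of -0.30 (SE 0.12) had an adjusted p of 0.0763. Right ventricle cKO (189.8, 132.3, 144.6 and 150.3) and control (183.4, 139.1, 187.7 and 215.0) overlapped, with -0.23 (SE 0.12, adjusted p of 0.253). Whole hearts held 141.0, 144.6 and 148.5 CPM against 144.4, 184.1 and 170.0, with -0.20 (SE 0.08, adjusted p of 0.28). Several alternatives made the call. In the left ventricle voom gave an adjusted p of 0.0189, length-scaled counts 0.0369 (with -0.45) and its 8 libraries alone 0.00547, and voom gave 0.023 in the right ventricle and 0.016 in the whole heart. Without left ventricle cKO 1 the value was -0.38 (adjusted p of 0.036), without right ventricle control 2 -0.34 (0.0304), and without whole heart control 1 -0.29 (0.0162). Ankrd37, a small ankyrin repeat protein and HIF target, had 40 to 226 estimated reads per library. It ranged from 2.19 to 4.61 CPM over all libraries and overlapped in every tissue, with -0.27 (SE 0.19), -0.23 (SE 0.18) and -0.09 (SE 0.16).

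Of 15 mitophagy receptors and adaptors tested, Bnip3 among them, 4 were lower and 0 higher in the left ventricle (median -0.04), 2 and 1 in the right (median -0.01), and 1 and 0 in the whole heart (median -0.06). The left ventricle count is close to the 25.6% of all genes called there. Phb2, a receptor of the inner membrane, fell by 0.37, 0.16 and 0.28 in left ventricle, right ventricle and whole heart. Optn, an autophagy adaptor, fell by 0.41 in the left ventricle and 0.27 in the right, and Fkbp8 fell by 0.12 in the left ventricle, though on log2 TPM its difference was 0.0081. With 1 library left out the right ventricle had 0 to 1 higher and 0 to 3 lower.

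The wider list of HIF targets outside glycolysis also split in direction. Of 34 such genes, 8 of them among the 10 genes, 7 rose and 9 fell in the left ventricle (median -0.08). In the right 5 rose and 5 fell (median -0.13), and in the whole heart 3 rose and 5 fell (median 0.03). Shares of all genes called higher were 12.3%, 6.12% and 1.96% in these comparisons, and called lower 13.4%, 4.19% and 2.07%. Rcor2, a corepressor of the CoREST family, fell by 0.76 (SE 0.09), 0.42 (SE 0.09) and 0.72 (SE 0.07) in left ventricle, right ventricle and whole heart. The number lower was 8 in the right ventricle without control 2, and 8 in the whole heart without control 1. It was 3 in the right ventricle without cKO 2, cKO 3 or control 1, and 1 or 2 in the whole heart without cKO 1, cKO 2, cKO 3 or control 3. The number higher was 3 in the right ventricle without cKO 1, and 0 in the whole heart without cKO 1, cKO 2, cKO 3 or control 3.

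Nearly every called gene of glucose uptake and glycolysis fell. Of 19, 9 fell and 1 rose in the left ventricle (median -0.20), and 9 fell and 0 rose in the whole heart (median -0.20). In the right ventricle 2 fell and 1 rose (median -0.11). Called lower among all genes were 13.4%, 2.07% and 4.19%, in the same order. Pfkp, a phosphofructokinase, fell by 0.50 in the left ventricle, from 126 ± 5.85 to 92.2 ± 13.46 TPM. Aldoa, muscle aldolase, fell by 0.42 there and 0.36 in the whole heart, and Gpi1, glucose-6-phosphate isomerase, by 0.28 and 0.22. The 3 genes had -0.13, -0.14 and -0.05 in the right ventricle and were not called. Aldoc, the other aldolase isozyme in the list and chosen after its value was seen, rose by 0.85 in the left ventricle and 1.02 in the right.

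The right ventricle glycolysis count changed most when control 2 was left out. That library held the lowest value of its group in 17 of the 19 genes and in 34.8% of all genes. Without it 8 of 19 fell and 1 rose, with a median of -0.18. Lower calls over all right ventricle genes also went from 689 to 1185 when control 2 was left out. Without cKO 2, cKO 3, control 1, control 3 or control 4 the number lower was 1. In whole hearts it was 2, 0, 3 and 4 without cKO 1, cKO 2, cKO 3 and control 3, in that order, and 10 without control 1. Cardiomyocyte markers, which moved with these genes, were lower in the left ventricle and whole heart as given above, and their part was not tested.

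**Figure D4:**
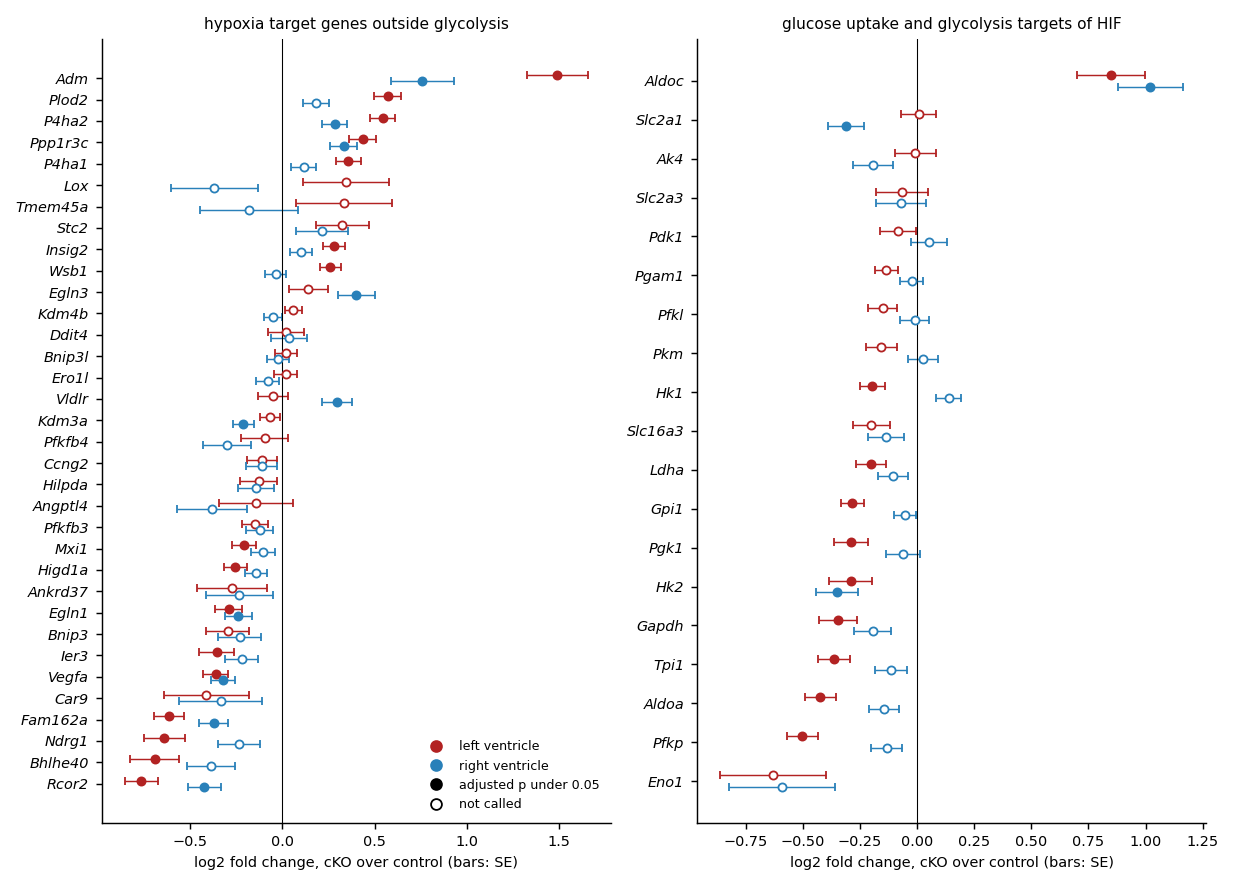
Log2 fold change of cKO over control (horizontal axis, bars are SE) for 34 HIF targets outside glycolysis and 19 genes of glucose uptake and glycolysis, in left (red) and right (blue) ventricle. Filled points have an adjusted p under 0.05; called targets stand on both sides of 0, while Aldoc is the 1 called glycolysis gene on the right side.

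Whether the cKO effect differed between the ventricles was tested directly. No gene of the 10 was called by edgeR, against 1.43% of all genes. At an unadjusted p under 0.05 there were 3, and 0 of the 10 were called under any alternative, DESeq2 and limma voom included. No alternative for this difference tied left to right ventricles. Adm had the largest difference, 0.73 (SE 0.24, p of 0.00696, adjusted p of 0.151), and plus or minus 2 SE spans 0.26 to 1.21. Ndrg1 had -0.40 (SE 0.16, adjusted p of 0.264) and P4ha1 0.24 (SE 0.10, adjusted p of 0.257). For Vegfa and Egln1 the same spans were -0.23 to 0.14 and -0.26 to 0.15. Calls of P4ha1, Hif1a and Ndrg1 in the left ventricle alone, and of Egln3 in the right alone, are therefore not shown to differ between the chambers. Of its family, Ndrg2 did differ, by -0.41 (SE 0.06, adjusted p of 0.00153), a call that held without each library in turn and ended on log2 TPM and with length-scaled counts (0.0964 to 0.237).

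The left and right ventricles of 1 genotype differed in several of the 10 genes. Left against right ventricle in controls, 3 of 10 were called against 21.0% of all genes. Epas1 was higher in the left by 0.36 (SE 0.06), with 75.5, 80.0, 80.4 and 85.7 CPM against 59.4, 57.1, 68.4 and 66.4. Ndrg1 was higher in the left by 0.61 (SE 0.11), and Egln3 lower by -0.53 (SE 0.10), and libraries of neither gene overlapped. In the cKO, 5 of 10 were called against 32.8% of all genes. Adm (0.87) and Epas1 (0.28, SE 0.06) were higher in the left, and Egln3 (-0.79, SE 0.10), Egln1 (-0.25, SE 0.07) and Vegfa (-0.18, SE 0.07) lower. With library totals these last values were -0.17 (adjusted p of 0.0662) for Egln1 and -0.10 (0.259) for Vegfa. The Vegfa call (adjusted p of 0.0499) also ended with voom (0.0505), a floor of 1 CPM (0.0517), the 8 libraries alone (0.055) and length-scaled counts (0.0884), and in 6 of 8 cases when 1 library was left out (adjusted p of 0.0676 to 0.184), and that of Egln1 in 2 (0.0509 without left ventricle cKO 4 and 0.0534 without right ventricle cKO 1). In controls Egln1 was called lower, by -0.26 (adjusted p of 0.00536), without right ventricle control 2. On log2 TPM the calls in controls ended (adjusted p of 0.06 for Egln3, 0.0891 for Epas1 and 0.21 for Ndrg1), as did those of Egln1 and Vegfa in the cKO (0.957 and 0.64, with -0.0072 and -0.07). Length-scaled counts ended those of Epas1 (0.173) and Ndrg1 (0.296) in controls, and of Epas1 (0.08) and Egln1 (0.218) in the cKO. Glycolysis genes were lower in the left for 11 of 19 in controls (median -0.24) and 16 of 19 in cKO (median -0.46), with 0 higher in either.

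Levels between genes can be set side by side only per length. By group mean TPM, Bnip3 (154 to 216), Hif1a (101 to 192) and Vegfa (97.6 to 128) were the most abundant, followed by Egln1 (32.3 to 43.6) and P4ha1 (24.3 to 45.3). These ranges overlap within each set, and the order changed between groups: Hif1a exceeded Bnip3 in whole heart cKO, and Vegfa exceeded Hif1a in both ventricle controls. Epas1 (11.8 to 17.1), Ndrg1 (5.90 to 14.4), Adm (3.26 to 11.5), Egln3 (5.29 to 11.3) and Ankrd37 (4.98 to 10.5) were lowest, and the ranges of the last 4 overlap.

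Within groups the 10 genes fell into sets that varied together. Over the 16 ventricle libraries, deviations of log2 CPM from the 4 group means had a Pearson r of 0.95 for Egln1 with Bnip3, 0.84 for Vegfa with Bnip3, 0.80 for Bnip3 with Ndrg1 and 0.78 for Egln1 with Vegfa. Hif1a ran the other way, with -0.77 for Ndrg1, -0.57 for Bnip3 and -0.54 for Egln1. Adm and P4ha1, which both rose in the left ventricle, had 0.65 over all libraries and -0.05 for the deviations. These values are descriptions over libraries that share their group and, in each library, depth and composition.

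Single libraries stood at the end of their group for many of these genes. Left ventricle control 4 was highest in 7 of the 10, against 27.6% of all genes. Left ventricle cKO 1 held the highest value of its group in 6 of the 10 genes and in 15 of 19 glycolysis genes, against 26.4% of all genes. Right ventricle cKO 1 did so in 6 and 15, against 27.9%. Right ventricle control 2 was lowest in 6 of 10. Of the 19 glycolysis genes, left ventricle cKO 3 was lowest in 16, right ventricle cKO 2 lowest in 14 and right ventricle control 4 highest in 13. The correlations were not recomputed without any of these libraries. The median deviation of the 19 glycolysis genes was 0.11 in left ventricle cKO 1, 0.10 in right ventricle cKO 1 and -0.23 in right ventricle control 2. Medians over all genes lay within 0.01 of 0 in every library.

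**Figure D5:**
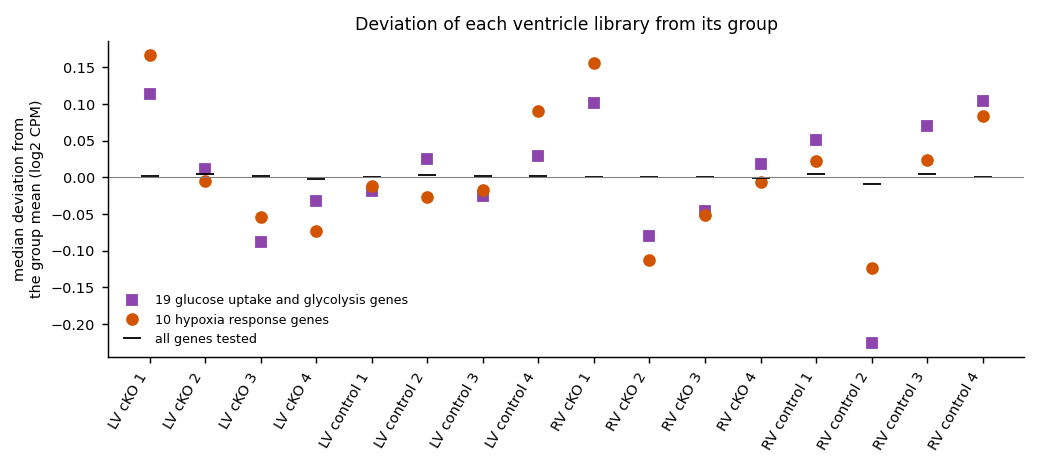
Median deviation of log2 CPM from the group mean (vertical axis) in each of the 16 ventricle libraries (horizontal axis) for the 10 genes (orange), the 19 glucose uptake and glycolysis genes (purple) and all genes tested (black dashes). The 2 gene sets lie above 0 in cKO 1 of both ventricles and at -0.12 and -0.23 in right ventricle control 2.

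Protein-coding genes whose mean reached 2 log2 CPM numbered 11087. The 5 of them whose log2 CPM was most like that of Adm over the 16 ventricle libraries were St8sia1 (r of 0.97), Synrg (0.96), Tbkbp1 (0.96), Gpr182 (0.96) and Mbp (0.96). For deviations from the group means their r was 0.77, 0.81, 0.67, 0.78 and 0.53. Gpr182 encodes an endothelial receptor and was in the adrenomedullin list. Mbp rose by 1.66 in the left ventricle and 1.01 in the right, and St8sia1 by 0.65 and 0.24. The 5 with the lowest r were Kcne1 (-0.94), Ror1 (-0.93), Lancl2 (-0.93), Kif15 (-0.93) and Sestd1 (-0.93), with -0.37, -0.18, -0.34, -0.33 and -0.24 for the deviations. Kcne1, a potassium channel subunit, fell by 1.93 in the left ventricle, 1.17 in the right and 1.06 in the whole heart. Both sets were picked by their r with Adm over these ventricle libraries, where Adm differed by genotype. The direction of their ventricle fold changes therefore follows from that choice.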

How the data were processed

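Per the labels' protocols, RNA was taken up in TRIzol and sequenced with a TruSeq stranded kit for mRNA. The deposited files give estimated counts and TPM for 140658 transcripts per library, which the authors made. The submitters' processing notes name Salmon 1.2.1, DESeq2 1.22.2, GRCm38.p6 and mm10. Transcripts were matched to GENCODE M21 without version (140137 found; the other 521 held at most 0.204% of reads and were left out). The deposited estimated counts were summed per gene and rounded, and the deposited TPM were summed per gene.

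Tests used edgeR 4.0.16 in R 4.3.3 (quasi-likelihood, TMM, filterByExpr), with the 6 whole hearts alone and the 16 ventricles in 1 model of 4 groups. The SE was taken from the fold change and the F statistic. Alternatives were RLE factors, library totals, other filters, DESeq2 1.42.0, limma 3.58.1 (voom, or log2 TPM plus 1), length-scaled counts, haemoglobin genes left out, other sets of libraries fitted together, a replicate block and each library left out. On simulated counts, a small set of genes of at least 1 CPM was changed by 1 or 0.5 (log2), each gene drawn independently. Of the genes so changed, 89% and 67% were called for the left ventricle (16238 genes run) and 87% and 66% for the right (16254). The shares were 77% and 36% for the whole heart (18528) and 74% and 50% for the ventricle difference (16235). They need not hold where as many genes change as in these data.

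The 10 genes and the gene lists were chosen with earlier results of these data known. Named genes are the 10, Prdm16 and up to 3 others of each list with the smallest p in the left ventricle. Added to these are the 5 genes with the highest and the 5 with the lowest r with Adm. Xist, Y-linked and haemoglobin genes were not eligible. Same-numbered cKO and control libraries deviated together with r of -0.116 to -0.00432 in whole hearts, -0.00561 to 0.0897 in left and -0.00777 to 0.131 in right ventricles. No block was used in the main tests. That includes the tests between ventricles, although same-numbered left and right cKO ventricles had r of 0.0528 to 0.237. Proteins were not compared.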

Additional observations from a re-analysis of the deposited data

Results flagged for a closer look

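Among the 10 genes, 2 of 40 groups of 4 ventricle libraries held a library far from the other 3 by Dixon's test, which chance alone gives in about 1 of 20 groups. Hif1a in right ventricle control 2 was the highest of its group at 354.6 CPM, against 326.7 to 331.5 in the other 3. Egln1 in left ventricle control 1 was the lowest of its group at 110.4 CPM, against 120.2 to 121.2. Among the 16 ventricle libraries, right ventricle control 2 also had the highest mesenchyme and valve marker sum, and left ventricle control 1 was the smallest library.

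The cKO effect differed between the ventricles, by a test of the difference, for Ndrg2 (-0.407 as left minus right in log2 fold change) and for Prdm16 itself (-0.4382, adjusted p of 0.0404). The Prdm16 call ended with the replicate block (0.0909), with library totals (0.0526), on log2 TPM (0.841, with -0.18), with length-scaled counts (0.812, with -0.24), and in 13 of 16 cases when 1 library was left out (0.0503 to 0.0922). Prdm16 fell by 1.19 in the left ventricle and 0.75 in the right. Its control means were 50.8 ± 5.08 CPM in the left ventricle and 39.6 ± 3.16 in the right, and its cKO means were 22.3 ± 0.772 and 23.5 ± 1.58 (SD, n = 4).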

How the results depend on the processing

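Directions of called changes of the 10 genes held under every alternative run in the 3 cKO comparisons. Genes called in the whole heart went from 773 to 2012 with all 22 libraries in 1 model, 1728 with DESeq2, 1777 with voom, 138 with length-scaled counts, 82 on log2 TPM and 218 with the replicate block; leaving out 1 library gave 184 to 1292. Of the 10 genes, 1 higher and 2 lower there became 2 higher with DESeq2 and 0 and 0 with length-scaled counts, log2 TPM or the block; leaving out 1 library gave 0 to 1 higher and 0 to 3 lower. Left ventricle calls went from 4216 to 2683 (length-scaled) and 2637 (TPM). Right ventricle calls went from 1696 to 824, 721 and 1052 (its 8 libraries alone); members lower, 2 as reported, were 1, 0 and 1 under these, and higher 1 on TPM, with 1 to 2 higher and 1 to 3 lower when 1 library was left out. The cause was not tested.

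Calls for the ventricle difference went from 236 to 466 (DESeq2), 57 (length-scaled), 46 (TPM), 414 (voom) and 152 (block), and 125 to 358 with 1 library left out. Left against right in controls, 3462 calls became 1685 (length-scaled) and 1387 (TPM); of the 10 genes, 2 higher became 0 under both, and 1 lower became 0 on TPM, 2 with DESeq2 or the 8 libraries alone, 3 with voom or the block, and 1 to 2 with 1 library left out. In the cKO, 5398 became 3208 (length-scaled), with 1 higher and 1 lower; 1 was lower with library totals or TPM, and 1 to 3 with 1 library left out.

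Values that changed sign were small, and uncalled by edgeR except where said. Length-scaled counts gave Epas1 -0.0751 in the whole heart and 0.0416 in the ventricle difference (0.0910 on TPM), and Ndrg3 0.10 and 0.0919 in whole heart and right ventricle. On TPM Ndrg3 was 0.16, 0.0257 and 0.0581 in whole heart, left and right ventricle (called lower in the left by edgeR), and Fkbp8, also called there, 0.0081. For the difference, voom gave Egln1 0.0042, Vegfa 0.0207, Bnip3 0.0537 and Ankrd37 0.0438; TPM gave Egln1 0.0563 and Ankrd37 0.0597, and length-scaled counts Ankrd37 0.0246. Left against right, library totals gave Hif1a 0.0071 and Bnip3 0.0091 in controls; Bnip3 was 0.15 on TPM and 0.0669 length-scaled. In the cKO, length-scaled counts gave Hif1a -0.0308 and Prdm16 0.13 (0.18 on TPM). With 1 library left out, ranges were -0.0016 to 0.0537 for Ndrg4 in the whole heart and -0.0404 to 0.21 for Arnt2 in the right ventricle; for the difference -0.112 to 0.0123 for Egln1, -0.0817 to 0.0422 for Vegfa, -0.156 to 0.0517 for Bnip3 and -0.168 to 0.0716 for Ankrd37; left against right, -0.0765 to 0.0126 for Hif1a and -0.156 to 0.0439 for Bnip3 in controls, and -0.0172 to 0.0999 for Hif1a and -0.19 to 0.0035 for Bnip3 in the cKO.

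Replicate numbers did not pair cKO with control libraries by the check used. The block changed the calls of Bnip3 in the left ventricle (adjusted p of 0.0298), and of Adm (0.129), Egln1 (0.0877) and Vegfa (0.0720) in the whole heart, and ended the Prdm16 call for the ventricle difference (0.0909); for left against right it added Egln1 and P4ha1 in controls (0.0332 and 0.0231) and Ndrg1 in the cKO (0.0441). Same-numbered left and right cKO ventricles had r of 0.0528 to 0.237 against at most 0.0285 for other numbers, a hint from the data and not the design. Ankrd37 and Adm had the fewest reads of the 10 genes, 40 to 226 and 46 to 397 per library.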

Other observations

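Among the other cell type lists, some erythroid and macrophage genes were called in a ventricle. Of 9 erythroid genes, 5 were higher in the right ventricle cKO, with summed levels of 32000 to 61100 TPM against 13800 to 32800 in controls, and 1 in the left (37100 to 92600 against 27500 to 51900). With 1 library left out these counts were 0 to 7 and 0 to 3. Of 6 macrophage markers, 2 were higher in the left ventricle cKO (51.0 to 59.8 TPM against 37.9 to 45.2) and 0 in the right. In the whole heart 0 of the 9 erythroid genes (24700 to 44100 TPM against 28400 to 34500) and 0 of the 6 macrophage markers were called. Smooth muscle and pericyte markers split, with 2 of 7 higher and 2 lower in the left ventricle and 1 higher and 2 lower in the right. Of 6 neural genes, 4 were tested in the ventricles and 0 were called. Over all genes, 25.6% were called in the left ventricle, 10.3% in the right and 4.03% in the whole heart. Whether blood content bears on the hypoxia response genes was not tested. With haemoglobin genes left out, no call of the 10 genes in the cKO comparisons changed. That setting removes only the reads of those genes, so it cannot answer the question.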
